A study of Homo sapiens with 21 samples.

Results

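The RNA levels of 10 keratins were compared across PC-9 lung cancer cells that had been sorted for low or high epidermal growth factor receptor (EGFR) and across a treatment with the histone deacetylase inhibitor vorinostat. The members were taken by symbol, as the simple epithelial keratins KRT7, KRT8, KRT18, KRT19 and KRT80 and the basal and stratified keratins KRT5, KRT6A, KRT14, KRT15 and KRT17. All 10 symbols were found among the 20111 genes listed in each of the 2 experiments. The tables list 55 keratin genes in all, and the other 45 are described only where a result turns on them. Keratins are the intermediate filament proteins of epithelial cells. A type II keratin (here KRT5, KRT6A, KRT7, KRT8 and KRT80) pairs with a type I keratin (here KRT14, KRT15, KRT17, KRT18 and KRT19), and neither forms a filament alone. KRT8 with KRT18 is the pair of simple, one-layered epithelia, to which KRT7 and KRT19 are added in ducts and airways. KRT5 with KRT14 or KRT15 is found in the basal layer of stratified epithelia, whereas KRT6A and KRT17 are induced when such epithelia are injured or activated.

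PC-9 is an EGFR-mutant non-small cell lung cancer line. The genotype label of the first library reads EGFR delE746-A750, and its last number rises by 1 from library to library up to 770, so the deletion is quoted here from the first only. In the first experiment parental, EGFR-low and EGFR-high cells were left untreated and harvested 24 h after seeding. The EGFR-low and EGFR-high cells were derived from the parental line by 6 rounds of sorting for the lowest or highest EGFR staining, and they are sorted populations rather than clones of 1 cell. In the second experiment EGFR-low and EGFR-high cells received DMSO or 1 µM vorinostat (SAHA) for 72 h, starting 24 h after seeding. Each of the 7 groups has 3 libraries of polyadenylated RNA, 21 in all. The study calls its RNA-seq samples biological replicates, by which it means experiments run separately and at different times, but the labels do not tie a library to a culture, and the p-values measure the spread between these libraries. Levels are given as FPKM, fragments normalised to transcript length and library size, a unit inferred from the values. The number of reads behind them is unknown, and therefore no counting interval can be given. A gene was tested if 3 or more libraries of its experiment reached 1 FPKM, and log2 fold changes refer to log2(FPKM + 1), which understates the change of genes with low levels. A gene that passed this filter only through the libraries of 1 line had to differ once it was tested, and its call is a description rather than support. Such genes are those left with fewer than 3 libraries at 1 FPKM when either line compared is left out.

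The labels were checked first. EGFR itself was 26.5 to 60.6 FPKM in the untreated EGFR-low libraries and 161 to 269 FPKM in the EGFR-high libraries, and it was 16.1 to 43.3 FPKM against 83.3 to 207 FPKM in the second experiment. The epithelial markers EPCAM (171 to 434 FPKM) and CDH1 (42.2 to 138 FPKM) were present in every library, and in each group 6 of 7 fibroblast markers stayed under 1 FPKM in every library. The lung lineage factor NKX2-1 was at or under 0.069 FPKM in every untreated library, so that this marker of lung adenocarcinoma was absent there, but it reached 24.1 to 51.1 FPKM in the EGFR-low libraries of the second experiment. The EGFR-low cells of the 2 experiments were therefore not alike in this marker, and their keratins are described separately. Comparisons within an experiment share libraries and are not independent of each other. Several libraries stood apart. EGFR-low DMSO replicate 1 correlated with the EGFR-high DMSO libraries at 0.884 to 0.953 (Pearson's r of log2(FPKM + 1) over the tested genes), whereas the other EGFR-low DMSO libraries correlated at 0.794 to 0.889. EGFR-high DMSO replicate 3 held 11.1 FPKM of NKX2-1, against 0.0859 and 0.0397 FPKM in replicates 1 and 2. EGFR-low vorinostat replicate 1 and EGFR-high vorinostat replicate 1 also differed from their replicates, with 0.333 FPKM of KRT81 against 9.17 and 3.82, and 12.7 FPKM of KRT34 against 0.318 and 0.364. The part of these differences in the keratin results was not tested. The comparison of the lines in DMSO and the difference of the vorinostat effect were also computed without the 2 DMSO libraries. All comparisons of the second experiment were also computed without all 4 libraries.

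**Figure D1:**
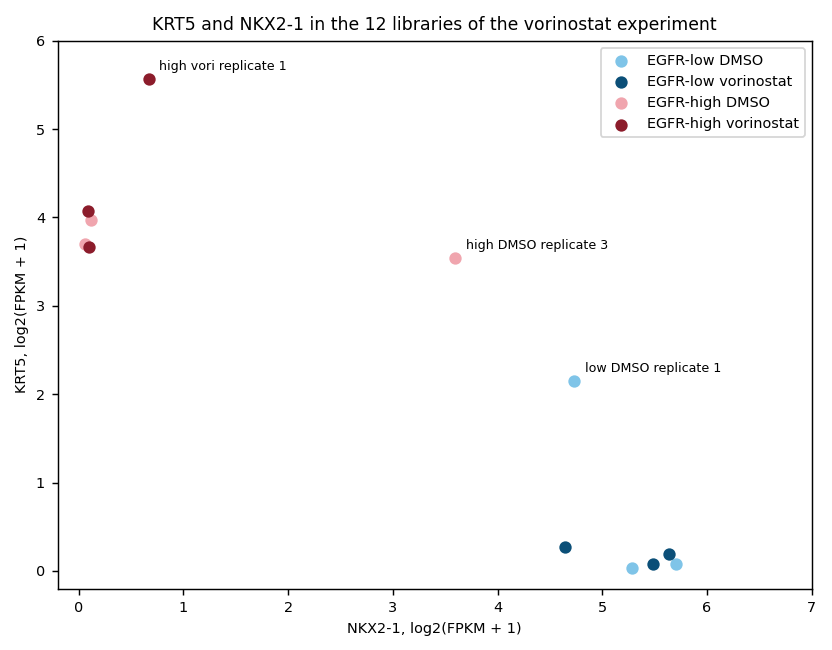
KRT5 (vertical axis) against NKX2-1 (horizontal axis), both as log2(FPKM + 1), in the 12 libraries of the vorinostat experiment, 1 point per library, coloured by group. EGFR-low libraries lie at the lower right and EGFR-high libraries at the upper left, while EGFR-low DMSO replicate 1 (3.44 FPKM of KRT5) and EGFR-high DMSO replicate 3 (11.1 FPKM of NKX2-1) lie between them and EGFR-high vorinostat replicate 1 (46.5 FPKM of KRT5) lies above its group.

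Between the untreated sorted lines, 3 of the 9 members tested passed the test, where 3.81% of all 11305 genes did. KRT17 was higher in EGFR-low cells, and KRT5 and KRT15 were lower. KRT17 had passed the filter only through the EGFR-low libraries. Without such genes 2 of 8 members were called, where 3.05% of 10870 genes were. With DMSO or vorinostat, 5 of the 7 members tested passed, all of them lower in EGFR-low cells, both in DMSO, where 51.8% of all 12236 genes were called, and in vorinostat, where 59.0% were. These were KRT5, KRT8, KRT15, KRT18 and KRT19 in both arms, but KRT5 had passed the filter there only through the EGFR-high libraries. Without such genes 4 of 6 members were called in each arm, where 46.8% of 10690 genes were in DMSO and 54.7% in vorinostat. The shares in DMSO and vorinostat are near those of all genes. In untreated cells the share is higher, but it rests on 2 of 8 members. Nothing is read from any of these counts. The median log2 fold change of the members tested, KRT5 and KRT17 included where tested, was -1.24 in DMSO and -1.66 in vorinostat, against 0.12 and 0.16 over all genes tested. It was -0.52 in untreated cells, against -0.03 over all genes. Since KRT5 and KRT17 had passed the filter through 1 line where said above, these medians are a description rather than support. In DMSO 3807 genes were called higher and 2527 lower in EGFR-low cells, and with median-of-ratios scaling this split was 3207 and 3190. In vorinostat it was 4427 and 2795, and 3650 and 3580 with that scaling. It moved the median of all genes by more than 0.1 in both arms, to 0.01 in DMSO and 0.00 in vorinostat. The 5 members were called lower under it as well. KRT7 and KRT80 passed the test in none of the comparisons, and KRT14 was too low to be tested in either experiment. RNA from bulk cells does not separate fewer cells with a keratin from less of its RNA per cell.

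**Figure D2:**
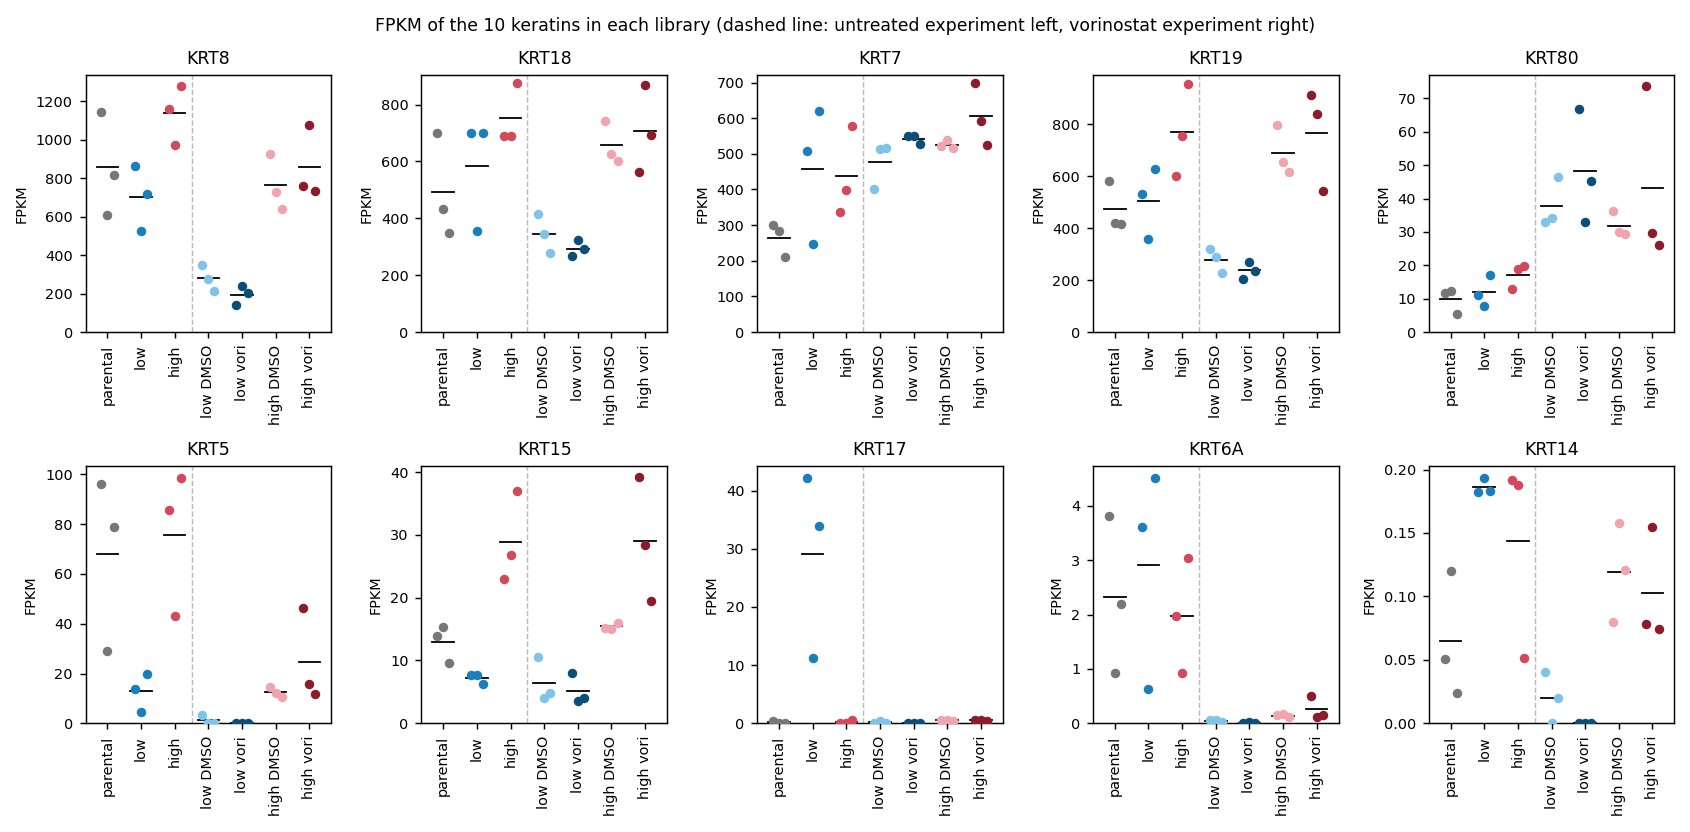
FPKM (vertical axes, linear, from 0) of the 10 keratins in each library, 1 panel per gene, with 1 point per library and a line at the group mean of 3 libraries. The untreated experiment is left of the dashed line and the vorinostat experiment (vori) right of it, where KRT8, KRT18 and KRT19 were lower in all EGFR-low libraries than in any EGFR-high library and KRT7 was not.

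The simple keratins carried most of the keratin RNA. KRT8, the type II keratin of all simple epithelia, was 1145, 607 and 818 FPKM in parental replicates 1 to 3, 865, 525 and 721 FPKM in untreated EGFR-low cells, and 1159, 975 and 1283 FPKM in untreated EGFR-high cells. The EGFR-low and EGFR-high libraries did not overlap, but the difference of -0.71 on the log2 scale (standard error 0.32) did not pass the test (limma adjusted p = 0.365). With the replicate number as a block, which was taken to pair these libraries, its adjusted p was 0.0486 in limma. That fit also held the parental libraries, which the numbers did not pair with either sorted line. In the second experiment KRT8 was 348, 274 and 216 FPKM in EGFR-low cells in DMSO and 926, 729 and 640 FPKM in EGFR-high cells. In vorinostat it was 138, 238 and 201 FPKM in EGFR-low cells and 759, 1080 and 736 FPKM in EGFR-high cells. Every EGFR-low library was thus below every EGFR-high library of its arm. The log2 fold change was -1.46 in DMSO (SE 0.24, adjusted p = 0.000613 in limma) and -2.16 in vorinostat (SE 0.24, adjusted p = 4.43e-05 in limma). By the mean of its rank in the 3 libraries, KRT8 was about 70th of all 20111 genes in untreated EGFR-high cells and about 351st in EGFR-low cells in vorinostat.

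KRT18, the type I partner of KRT8, was also lower in EGFR-low cells of the second experiment. Its levels in untreated cells were 701, 354.4 and 701 FPKM in EGFR-low and 688, 690 and 875 FPKM in EGFR-high libraries, and these overlapped. In DMSO it was 414, 344 and 277 FPKM in EGFR-low cells against 743, 628 and 600 FPKM in EGFR-high cells, without overlap. In vorinostat the levels were 267, 322 and 291 FPKM against 562, 870 and 694 FPKM. The log2 fold changes were -0.94 in DMSO (SE 0.18, adjusted p = 0.0015 in limma) and -1.25 in vorinostat (SE 0.18, adjusted p = 0.000159 in limma). KRT18 has many processed copies in the genome. Windows of 50 bases were taken from its longest coding transcript in GENCODE release 29. Of these, 43.4% also occur, on either strand, in a transcript of another gene. The gene that shared most was KRT8, with 19.8% of the windows of KRT18. How reads in such windows were divided is not given in the sources used here. Their part in the levels of KRT8 and KRT18, and in the ratio of both, was not tested.

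KRT19, a type I keratin of ducts and airways, was 530, 358 and 627 FPKM in untreated EGFR-low cells and 599, 753 and 953 FPKM in untreated EGFR-high cells, which overlapped. In DMSO it was 319, 289 and 225 FPKM in EGFR-low cells against 797, 655 and 616 FPKM in EGFR-high cells. In vorinostat it was 205, 271 and 236 FPKM against 912, 838 and 544 FPKM. Both sets were separate, and the log2 fold changes were -1.31 (SE 0.21, adjusted p = 0.000468 in limma) and -1.66 (SE 0.21, adjusted p = 6.21e-05 in limma). In both arms KRT8, KRT18 and KRT19 were called lower in every fit that left out 1 library or all 4. In DMSO they were also called lower without the 2 DMSO libraries, a fit not run for the vorinostat arm.

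KRT7, the type II keratin of glandular and airway epithelium, was 508, 247 and 620 FPKM in untreated EGFR-low cells and 336, 398 and 578 FPKM in EGFR-high cells. In DMSO it was 400, 514 and 517 FPKM in EGFR-low cells against 522, 539 and 515 FPKM in EGFR-high cells, and in vorinostat 551, 551 and 527 FPKM against 698, 593 and 525 FPKM. The groups overlapped in all 3 comparisons, and in none did it pass the test. The 95% intervals of its log2 fold change ran from -0.45 to 0.15 in DMSO and from -0.45 to 0.15 in vorinostat, so that a fall of the size seen for KRT8 lies outside them. In untreated cells the interval was wider, from -0.81 to 0.82.

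KRT80, a type II keratin of many epithelia, was lower in level than the others of this group, with 5.46 to 19.7 FPKM in untreated libraries and 26.0 to 73.7 FPKM in the second experiment. Its EGFR-low and EGFR-high libraries overlapped in every comparison. In vorinostat its log2 fold change between them was 0.26 (limma adjusted p = 0.537), but 1 library decided this value: without EGFR-high vorinostat replicate 1, which held 73.7 FPKM against 29.8 and 26.0 in its replicates, it was 0.72 (adjusted p = 0.0284), and without replicate 3 it was -0.02.

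**Figure D3:**
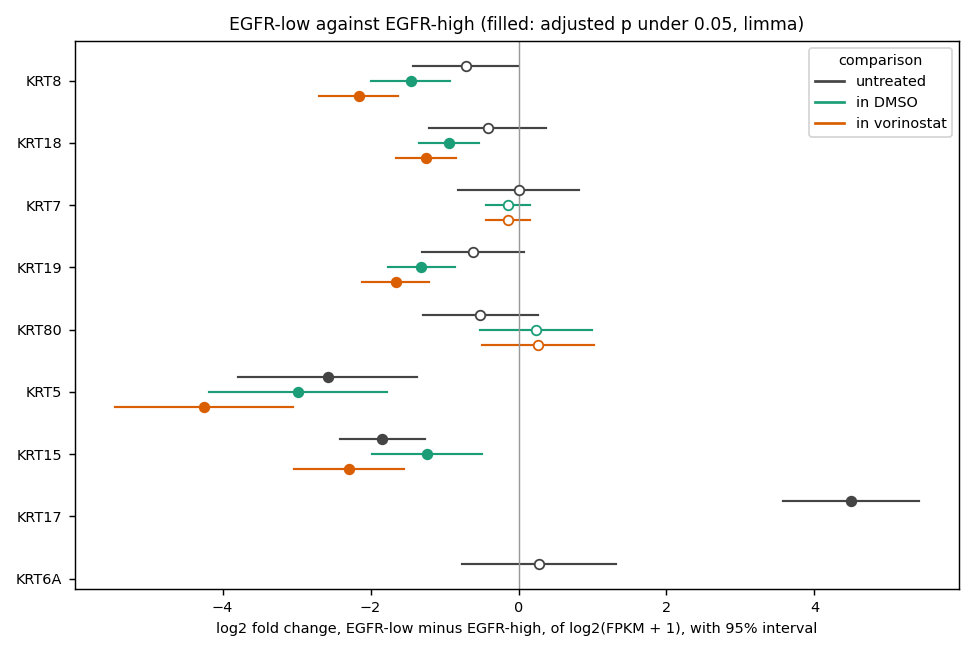
Log2 fold change of log2(FPKM + 1), EGFR-low minus EGFR-high (horizontal axis), of each keratin tested, with its 95% interval, for the untreated, DMSO and vorinostat comparisons. Filled points passed the limma test at an adjusted p of 0.05: KRT5 and KRT15 did so below 0 in all 3 comparisons, KRT8, KRT18 and KRT19 in DMSO and vorinostat, KRT17 above 0 in untreated cells, and KRT7 and KRT80 in none.

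Of the basal keratins, KRT5 and KRT15 were lower in EGFR-low cells in all 3 comparisons. KRT5, the type II keratin of basal cells, was 13.8, 4.72 and 20.0 FPKM in untreated EGFR-low cells and 85.7, 43.0 and 98.5 FPKM in untreated EGFR-high cells. Replicate 2 was the lowest in each of these groups and in parental cells. In DMSO it was 3.44, 0.0536 and 0.0257 FPKM in EGFR-low cells and 14.6, 12 and 10.6 FPKM in EGFR-high cells. In vorinostat it was 0.204, 0.141 and 0.059 FPKM in EGFR-low cells and 46.5, 15.8 and 11.7 FPKM in EGFR-high cells. No EGFR-low library reached the lowest EGFR-high library of its comparison. The log2 fold change was -2.58 in untreated cells (SE 0.55, adjusted p = 0.0232 in limma), -2.98 in DMSO (SE 0.55, adjusted p = 0.00106 in limma) and -4.25 in vorinostat (SE 0.55, adjusted p = 7.28e-05 in limma). In the second experiment 1 of the 6 EGFR-low libraries reached 1 FPKM, so that it passed the filter there through the EGFR-high libraries and both calls are given as a description. The untreated call was sensitive to single libraries. It was lost without EGFR-low replicate 1 (-2.72, adjusted p = 0.0627), EGFR-low replicate 2 (-2.04, adjusted p = 0.0647), EGFR-high replicate 1 (-2.45, adjusted p = 0.0865) or EGFR-high replicate 3 (-2.35, adjusted p = 0.108). With the replicate number as a block, in a limma fit that also held the unpaired parental libraries, its adjusted p was 0.000568. In DMSO the value was -3.78 without EGFR-low DMSO replicate 1 and EGFR-high DMSO replicate 3, and in vorinostat it was -3.73 without the 4 libraries that stood apart.

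KRT5 and KRT8 are the members listed among the promoters used here. Both were lower in all EGFR-low than in any EGFR-high library in all 3 comparisons, but the start listed for KRT8 is a distal one. The promoter of KRT5 is therefore the one printed. The 250 bases before its start, from RefSeq on GRCh38.p14, lie on the minus strand at chr12:52520395-52520644. Capitals mark the E boxes, the motif CANNTG on both strands.
KRT5: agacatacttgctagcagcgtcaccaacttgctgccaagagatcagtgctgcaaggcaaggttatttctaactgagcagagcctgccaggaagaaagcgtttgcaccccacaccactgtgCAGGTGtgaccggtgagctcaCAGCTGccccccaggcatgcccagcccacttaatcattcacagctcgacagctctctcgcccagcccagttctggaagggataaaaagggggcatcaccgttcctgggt
The 2 matches read CAGGTG and CAGCTG, and 61.8% of the 35116 promoters of that length hold at least 1 E box, so that its presence is common. No match was found in this window for TATAAA (in 10.7% of all promoters), GGGCGG (42.6%), TGANTCA (6.57%) or GCCNNNGGC (19.8%), each searched on both strands. KRT5 lies beside KRT6A in the type II cluster on chromosome 12, which also holds KRT7, KRT8 and KRT80. The type I gene KRT18 is next to KRT8 there, while KRT13, KRT15 and KRT19 are neighbours among the keratins of chromosome 17.

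KRT15, a type I keratin of basal cells, was 7.73, 7.69 and 6.26 FPKM in untreated EGFR-low cells and 23.0, 26.8 and 37.0 FPKM in EGFR-high cells, a log2 fold change of -1.84 (SE 0.26, adjusted p = 0.00278 in limma). In DMSO the levels were 10.5, 4.03 and 4.82 FPKM in EGFR-low cells and 15.2, 15 and 16 FPKM in EGFR-high cells. In vorinostat they were 8.07, 3.60 and 3.96 FPKM in EGFR-low cells and 39.2, 28.4 and 19.5 FPKM in EGFR-high cells. The groups did not overlap in either arm, with log2 fold changes of -1.24 (SE 0.34, adjusted p = 0.0101 in limma) and -2.29 (SE 0.34, adjusted p = 0.000169 in limma). In all 3 comparisons KRT15 kept its call in every fit that left out 1 library.

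KRT14, the usual type I partner of KRT5, was at most 0.193 FPKM in every library, although KRT5 reached 98.5 FPKM. It was listed at 0 in all 3 EGFR-low libraries in vorinostat. At such levels no order between the groups is read from it.

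KRT17, a type I keratin of activated epithelia, was 42.2, 11.2 and 34 FPKM in untreated EGFR-low cells. It was 0.451, 0 and 0 FPKM in parental cells and 0, 0 and 0.606 FPKM in EGFR-high cells, where 0 includes values that round to 0. It reached the 1 FPKM needed for testing through the EGFR-low libraries alone, so that a difference was bound to be seen once it was tested. Its log2 fold change was 4.50 against EGFR-high cells (SE 0.42, adjusted p = 0.000162 in limma). After DMSO it was 0.113, 0.384 and 0.045 FPKM in EGFR-low cells and 0.0604, 0.0963 and 0.0543 FPKM after vorinostat. The EGFR-high libraries held 0.629, 0.511 and 0.377 FPKM in DMSO and 0.614, 0.545 and 0.358 FPKM in vorinostat. No EGFR-low library of the second experiment came near the lowest of the untreated EGFR-low libraries, and in vorinostat all 3 were below the EGFR-high libraries. KRT17 was under the filter there, and the 2 experiments, which also differ in harvest time, vehicle and NKX2-1, were not tested against each other. Of its 50-base windows 16.0% occur in other genes, most of them in KRT17P1.

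KRT6A, a type II keratin of activated epithelia, was 3.61, 0.631 and 4.51 FPKM in untreated EGFR-low cells and 1.97, 0.928 and 3.05 FPKM in EGFR-high cells, which overlapped (limma adjusted p = 0.925). In the second experiment it was at most 0.498 FPKM and was not tested. Of its 50-base windows 39.1% occur in other genes, mainly in KRT6C.

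Parental cells had been sorted for neither level, and each sorted line was compared with them. Between EGFR-low and parental cells 1 of the 9 members passed the test, with 1.60% of all genes called, and between EGFR-high and parental cells none did, with 0.0708% of all genes called (1093 genes had an unadjusted p under 0.05). KRT17, which had passed the filter only through the EGFR-low libraries, was the member called, so that this count says nothing of the other members, of which 0 of 8 were called, where 1.21% of 10991 genes were. It stood at a log2 fold change of 4.54 (SE 0.42, adjusted p = 0.000405 in limma). KRT5 was 95.9, 29.2 and 78.9 FPKM in parental cells, above each EGFR-low library, a log2 fold change of -2.35 in EGFR-low cells (SE 0.55, adjusted p = 0.0657 in limma). This value passed the test with median-of-ratios scaling (adjusted p = 0.0314), with quantile normalisation (adjusted p = 0.0318), and without parental replicate 2 (-2.86, adjusted p = 0.026). It also did so with the replicate block (adjusted p = 0.00196), but the replicate numbers did not pair these libraries (r = 0.587, 0.416 and -0.092 for numbers 1 to 3, as deviations from the group means).

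KRT15 lay between the sorted cells, as it was 13.9, 15.4 and 9.66 FPKM in parental libraries, above every EGFR-low and below every EGFR-high library. The steps were -0.75 in EGFR-low cells (limma adjusted p = 0.224) and 1.1 in EGFR-high cells (limma adjusted p = 0.356), so that neither step passed the test. KRT7 was 299, 283 and 210 FPKM, KRT19 was 582, 421 and 416 FPKM and KRT80 was 11.8, 12.4 and 5.46 FPKM in parental cells, each below every EGFR-high library. The log2 fold changes of these 3 in EGFR-high cells were 0.70, 0.69 and 0.79 (limma adjusted p = 0.509, 0.507 and 0.507). In EGFR-low cells, whose libraries overlapped with the parental ones, they were 0.71, 0.07 and 0.27 (limma adjusted p = 0.394, 0.934 and 0.74). The KRT7 values of both sorted lines were close, but each has a 95% interval from -0.11 to 1.52, so that no equality is read from them. KRT18, at 700, 434 and 349 FPKM in parental cells, and KRT6A, at 3.82, 0.934 and 2.19 FPKM, overlapped with both sorted groups. The share of all genes whose libraries do not overlap with the parental ones is not given, and nothing is read from these orders.

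Vorinostat was compared with DMSO within each sorted line. None of the 7 members tested passed the limma test in EGFR-low cells (0% of all genes called, 115 genes with an unadjusted p under 0.05) or in EGFR-high cells (0% called, 409 genes). The median log2 fold change of the members was -0.22 in EGFR-low cells, against -0.03 over all genes, and 0.20 in EGFR-high cells, against -0.06. All 7 were above 0 in EGFR-high cells and 5 of 7 below 0 in EGFR-low cells. EGFR-high vorinostat replicate 1, which stood apart, held the highest level of its group for KRT5, KRT7, KRT15, KRT19 and KRT80. For KRT8 and KRT18 it did not. The share of all genes with either sign is not given, and nothing is read from these signs. KRT15 was the member whose EGFR-high libraries in vorinostat were all above those in DMSO, by 0.82 in log2 units (SE 0.34, adjusted p = 0.94 in limma). KRT7 was higher in vorinostat in all EGFR-low libraries, by 0.20 (SE 0.14, adjusted p = 1.00 in limma).

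The difference of the vorinostat effect between the lines was tested directly, and no gene passed (0% called, 215 genes with an unadjusted p under 0.05). It was -1.05 for KRT15 (95% interval -2.11 to 0.00), -0.70 for KRT8 (-1.46 to 0.05), -1.27 for KRT5 (-2.97 to 0.43), -0.34 for KRT19 (-0.98 to 0.29) and -0.31 for KRT18 (-0.88 to 0.26), each as EGFR-low minus EGFR-high on the log2 scale with an adjusted p of 0.999. These intervals are wide. Without the 4 libraries that stood apart, the values of KRT5 and KRT19 were 0.05 and 0.08, so that their sign rests on those libraries.

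The composition of the keratin RNA was compared next. The 10 members made up 87.4 to 99.0% of the FPKM of all keratin genes in each library. Their sum was 2316 ± 694 FPKM (SD, n = 3) in untreated EGFR-low cells and 3220 ± 544 FPKM in EGFR-high cells. In DMSO it was 1425 ± 124 FPKM against 2697 ± 323 FPKM, and in vorinostat 1320 ± 92.2 FPKM against 3035 ± 452 FPKM. The libraries of the lines did not overlap in any of these 3 comparisons (exact two-sided permutation p = 0.1 each, the smallest that 3 against 3 libraries allow). As a percent of the FPKM of all genes, the sum was 0.554, 0.281 and 0.588% in untreated EGFR-low libraries and 0.614, 0.490 and 0.738% in EGFR-high libraries, which overlapped (exact permutation p = 0.4). The groups stayed separate on that scale in DMSO and in vorinostat (exact permutation p = 0.1 each).

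The FPKM of KRT7 overlapped between the lines in all 3 comparisons, while the sum of the keratins was lower in EGFR-low cells. KRT7 thus took a larger share in EGFR-low cells, which is not a result apart from that lower sum. It held 18.3, 15.6 and 21.7% of the keratin FPKM in untreated EGFR-low cells and 11, 13 and 14.4% in EGFR-high cells. In DMSO the shares were 25.4, 34.6 and 39.7% against 16.4, 19.4 and 20.2%, and in vorinostat 44.1, 38.2 and 39.8% against 19.7, 16.1 and 19.3%. The groups were separate each time (exact permutation p = 0.1), and the gap was smallest in untreated cells, between 15.6% in EGFR-low replicate 2 and 14.4% in EGFR-high replicate 3. The share of KRT8 was 19.0 ± 2.81% in EGFR-low against 26.8 ± 2.06% in EGFR-high cells in DMSO, and 14.3 ± 2.84% against 26.0 ± 4.08% in vorinostat (SD, n = 3, exact permutation p = 0.1 each). The share of KRT19 was 19.0 ± 1.5% against 24.2 ± 0.733% in DMSO (exact permutation p = 0.1). KRT8 was the most abundant keratin in all 9 untreated libraries, whereas KRT7 was in all 6 EGFR-low libraries of the second experiment except EGFR-low DMSO replicate 1, where KRT18 was.

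Type II and type I keratins must pair, and their summed FPKM were close to equal in most groups. The ratio of type II to type I was 1.07 ± 0.0391 in untreated EGFR-low cells and 1.01 ± 0.10 in EGFR-high cells (exact permutation p = 0.4). In DMSO it was 1.01, 1.30 and 1.52 in EGFR-low cells and 0.916, 0.942 and 0.917 in EGFR-high cells. In vorinostat it was 1.54, 1.38 and 1.44 against 0.85, 0.906 and 0.949. The EGFR-low libraries were above the EGFR-high libraries in both arms (exact permutation p = 0.1 each). This ratio is built from the keratin levels given above and is not a result apart from them. Within the pair of KRT8 and KRT18 the order was the opposite, with a ratio of KRT8 to KRT18 of 0.805 ± 0.0326 in EGFR-low and 1.16 ± 0.0904 in EGFR-high cells in DMSO.

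**Figure D4:**
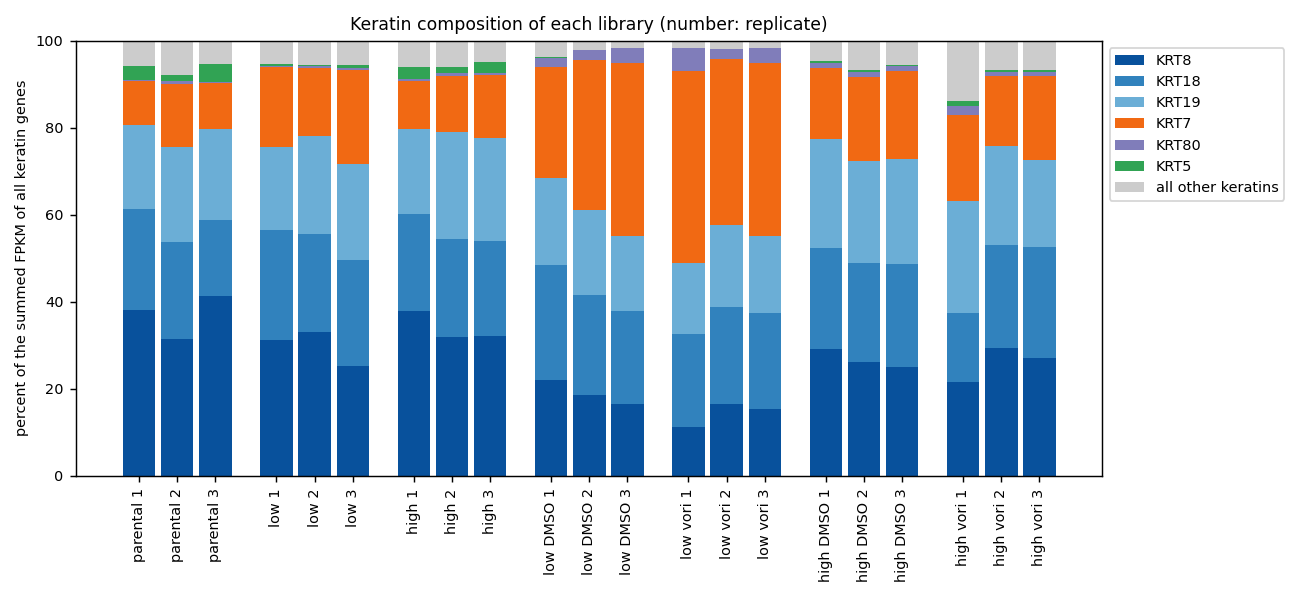
Percent of the summed FPKM of all keratin genes (vertical axis, stacked bars) held by KRT8, KRT18, KRT19, KRT7, KRT80, KRT5 and all other keratins in each of the 21 libraries, grouped by condition (low and high, EGFR-low and EGFR-high; vori, vorinostat). KRT7 holds 15.6 to 21.7% in untreated EGFR-low libraries and 25.4 to 44.1% in the EGFR-low libraries of the second experiment, while it stays at or under 20.2% in every EGFR-high library.

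Of the 45 other keratin genes, 8 were tested in untreated cells and 7 in the second experiment. KRT13, a type I keratin of mucosal epithelia, was lower in EGFR-low cells in all 3 comparisons. It was 7.81, 7.97 and 5.25 FPKM against 80.8, 75.3 and 83.3 FPKM in untreated cells, at -3.35 on the log2 scale (adjusted p = 0.000134 in limma). Its log2 fold change was -4.39 in DMSO and -6.99 in vorinostat (adjusted p = 0.0019 and 7.07e-05 in limma). The DMSO levels were 24.7, 0.827 and 0.094 FPKM against 63.4, 102 and 69.9 FPKM, and in vorinostat 0.0728, 0.308 and 0.119 FPKM against 275, 144 and 78.9 FPKM. The type I keratin KRT23 was lower as well, with log2 fold changes of -3.02 in untreated cells, -3.49 in DMSO and -5.60 in vorinostat (limma adjusted p = 0.00268, 0.000562 and 3.82e-05). In the second experiment KRT13, KRT16 and KRT23 passed the filter only through the EGFR-high libraries and KRT86 only through the EGFR-low libraries, so that their calls there were built in. KRT13 and KRT23 were also below parental cells, with log2 fold changes of -2.63 and -2.58 (limma adjusted p = 0.00146 and 0.0111).

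KRT16, the usual partner of KRT6A, and the hair keratin KRT81 were called lower in EGFR-low cells in DMSO (-1.91 and -1.84, limma adjusted p = 0.000424 and 0.025) and in vorinostat (-2.88 and -2.92, limma adjusted p = 3.82e-05 and 0.0016). In untreated cells the KRT16 level was above that of EGFR-high cells in all 3 EGFR-low libraries, 11.2, 10.3 and 10.6 FPKM against 4.85, 8.08 and 9.50 FPKM, without passing the test (limma adjusted p = 0.461). KRT81 was 48.0, 20.4 and 70.9 FPKM in untreated EGFR-low cells and 13.1, 20.7 and 23.4 FPKM in EGFR-high cells. These overlapped, and KRT81 was not called there. KRT86, named after its values were seen, was the other keratin called higher, by 0.97 in DMSO and 1.11 in vorinostat (limma adjusted p = 0.044 and 0.021). Of its windows 40.5% are shared, mainly with KRT81, and of the windows of KRT81 44.6% are shared, mainly with KRT86. KRT10 (7.11 to 19.6 FPKM in all libraries) and KRT6B (up to 9.45 FPKM in parental cells) passed the test in none of the comparisons in which they were tested.

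Genes that hold keratin filaments at junctions, bind them, or regulate their genes were counted from lists, which were drawn up with earlier results of these data known. Of the 16 keratin anchors tested (desmosome and hemidesmosome proteins and plakins), none passed between the untreated sorted lines. In DMSO 5 were higher and 6 lower in EGFR-low cells, and in vorinostat again 5 and 6, with medians of 0.14 and -0.14. These and the following counts stand beside 3.81% of all genes called between the untreated sorted lines and 1.60% between EGFR-low and parental cells. The share of all genes called was 51.8% in DMSO and 59.0% in vorinostat. Nothing particular to a list is read from the counts. The hemidesmosome integrins ITGA6 and ITGB4, which link keratin filaments to the basement membrane, had log2 fold changes of -2.10 and -2 in DMSO and -2.48 and -2.92 in vorinostat. The desmosomal plakophilin PKP2 was at -1.41 in DMSO. These genes are named by the size of their change. The 5 anchors called higher in each arm are not named, and no fall of the anchors as a list is read from these genes. All 10 keratin filament partners were tested. In DMSO 3 were higher, led by the small heat shock protein HSPB1 (1.83), and 3 lower, led by FAM83H (-0.99), and the counts were again 3 and 3 in vorinostat (HSPB1 2.25, FAM83H -1.38). Between untreated EGFR-low and parental cells the plakin family member EPPK1, which passed the filter only through the EGFR-low libraries, was higher by 1.33 (limma adjusted p = 0.021), the one partner called.

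Of the keratin gene regulators, 15 were tested in untreated cells and 1, the grainyhead factor GRHL3, passed, at -1 in EGFR-low cells (limma adjusted p = 0.0232). With DMSO or vorinostat 8 of 19 were higher and 8 lower in each arm, and 5 of these 16 calls, SOX2, FOXA2 and TP63 among them, were of genes that passed the filter through 1 line. SOX2 was higher by 4.74 in DMSO and 5.64 in vorinostat, FOXA2 by 3.56 and 4.35, and EHF was at -3.93 and -5.38. TP63, the master factor of basal cells, was 10.1, 5.46 and 9.42 FPKM in EGFR-low cells in DMSO and 0.113, 0.0978 and 5.39 FPKM in EGFR-high cells. It was thus higher where KRT5 and KRT15 were lower, by 2.19 on the log2 scale in DMSO (limma adjusted p = 0.0052).

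Of the basal and squamous markers, 1 (LY6D, -2.20) of 6 was lower in untreated EGFR-low cells. With DMSO or vorinostat 4 of 7 were lower and 1 higher in each arm. In DMSO TRIM29 was at -3.95 and LY6D at -3.23, both of which needed the EGFR-high libraries to pass the filter. The marker called higher in DMSO was TP63, given above, which also passed the filter through 1 line. The 2 markers called there through both lines are not named. Nothing is read from the named genes about the list in either arm. Of the 9 other intermediate filament genes tested there, 5 were higher and 2 lower in DMSO and 6 and 2 in vorinostat, with nestin (NES) at 2.18 and internexin (INA) at -2.84 in DMSO, and 4 of the calls in each arm, these 2 included, were of genes tested through 1 line. None of the 7 tested in untreated cells passed. The vimentin gene VIM was at most 25.6 FPKM in any library. The epithelial markers counted 3 higher and 2 lower of 10 in DMSO and 4 and 2 in vorinostat, with none in untreated cells. Of the lung lineage markers none reached the filter in untreated cells, while 3 of 3 in DMSO (NKX2-1, FOXA2 and NAPSA) and 2 of 3 in vorinostat were higher in EGFR-low cells, where NKX2-1 was at 3.98 and 4.97. All 3 needed the EGFR-low libraries to pass the filter. None of the fibroblast, leukocyte and endothelial markers passed in any comparison. Their sums were 1.02 to 5.88 FPKM for the fibroblast list and 18.2 to 46.3 FPKM for the leukocyte and endothelial list, most of the latter from CD68 (14.5 to 39.3 FPKM). None of the listed genes passed in vorinostat against DMSO. The part of the lineage genes that moved with the keratins in the second experiment was not tested.

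The genes whose pattern was most like that of KRT5, KRT15 and KRT8 were found by Pearson's r over the 12 libraries of the second experiment. These libraries fall into 2 lines that differ in most genes, which all such values share, and no p is given. For KRT5 they were MCAM (0.996), LYPD3 (0.995) and CHRDL1 (0.995), with r over the 9 untreated libraries of 0.893, -0.372 and 0.851. For KRT15 they were FAM109A (0.977), L1CAM (0.971) and TMEM185A (0.971), with 0.371, 0.973 and -0.165 in untreated cells. For KRT8, HOXC13 (0.994) and TCF7 (0.994) are given, with 0.753 and 0.836 in untreated cells. MCAM, CHRDL1 and L1CAM were thus close in both experiments and LYPD3 and TMEM185A in the second alone. L1CAM was 0.0546 to 0.237 FPKM in untreated EGFR-low and 22.7 to 36.0 FPKM in EGFR-high libraries, beside the levels of KRT15 given above.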

How the data were processed

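Polyadenylated RNA of 21 PC-9 libraries was sequenced after library preparation (Kapa mRNA Hyper Prep, Roche). The submitters' processing notes list STAR 2.5.1b, Cufflinks 2.2.1, DESeq2 1.10.1 and the build hg19, without giving their roles. The values deposited by the authors are named Cufflinks gene counts and were read as FPKM, since they are not whole numbers (KRT17 is listed at 8.86e-22 in 1 parental library). Depth is unknown, and whether strand was used in counting is not given in the sources used here. Both tables, of 9 and 12 libraries, were used as deposited and analysed separately.

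Genes with at least 1 FPKM in 3 libraries were tested on log2(FPKM + 1) with limma 3.58.1 (trend) in R 4.3.3, with 1 mean per group, all groups of an experiment in the fit and Benjamini-Hochberg adjustment over all genes tested, at a threshold of 0.05. The fit was tested on simulated data. For sums, shares and ratios a two-sided permutation test was enumerated exactly. Python 3.11.15 with pandas 2.3.3 and numpy 2.4.6 was used for the rest. Alternatives were pseudocounts of 0.1 and 5, no filter, a filter of 5 FPKM, median-of-ratios scaling, quantile normalisation, the compared groups alone, the replicate number as a block, no trend, and each library left out. The fits without 2 or 4 libraries were added after the data were seen. The members and gene lists were chosen with earlier results of these data known. The members are all named, though not each in every comparison. Other keratins are named by size of change (4 genes) or by a group mean of at least 5 FPKM, and listed genes by the largest changes among those called, up to 3 a list. The genes most like a member are named up to 3 a member, and 1 result of that kind is not reported here. The lists, written from general knowledge, are keratin anchors, keratin filament partners, other intermediate filaments, keratin gene regulators, and basal and squamous, epithelial, lung lineage, fibroblast, and leukocyte and endothelial markers.

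As a check of pairing, each library was expressed as its deviation from the group mean and correlated with the library of the same number in the other group. Pearson's r was 0.343, 0.73 and 0.689 for the untreated sorted lines, 0.353, 0.351 and 0.163 for the lines in vorinostat, and 0.267, 0.302 and 0.329 for vorinostat against DMSO in EGFR-low cells. Since no pair was under 0.1, replicate numbers were taken as pairs in those 3 comparisons, a hint from the data. Not every library correlated most with its own number. In untreated cells EGFR-low replicate 1 correlated at 0.624 with EGFR-high replicate 3. In vorinostat EGFR-low replicate 3 correlated at 0.249 with EGFR-high replicate 2. The study's replicates are experiments done at different times, but neither the labels nor the methods say whether equal numbers share an experiment. The KRT5 promoter is from RefSeq on GRCh38.p14, and shared windows of 50 bases were counted in GENCODE release 29. No coordinates of the hg19 alignment were used.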

Additional observations from a re-analysis of the deposited data

How the results depend on the processing

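The calls of KRT15 in untreated cells and of KRT8, KRT15, KRT18 and KRT19 in both arms of the second experiment kept their direction and their call in every alternative in which they were tested. So did those of KRT17 in untreated cells and KRT5 in the second experiment, but these genes were tested through 1 line only, and no stability is read from that. The replicate number as a block was taken to pair the libraries in 3 comparisons. Each fit with the block held all groups of its experiment, also those that the numbers did not pair. With it 4 members were called between the untreated sorted lines instead of 3, as KRT8 was added (-0.71, adjusted p = 0.0486). The block raised the genes called there from 431 to 965 and those against parental cells from 181 to 525, and 2 members instead of 1 were called against parental cells, where KRT5 was added (-2.35), although the numbers did not pair the libraries in that comparison. It changed no other call of a member.

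Without the filter 660 genes were called between the untreated sorted lines and with a filter of 5 FPKM 206. Against parental cells these counts were 331 and 82 for EGFR-low cells, and 107 when the fit held the compared groups alone. For EGFR-high cells they were 15 and 3, and 2 with only the compared groups. Without the filter 8 members were called between the lines in vorinostat, since KRT6A, KRT14 and KRT17, all under 1 FPKM, were added, and 1 gene each was called for vorinostat in EGFR-low cells and for the difference of its effect. The untreated call of KRT5 was lost without the filter (-2.58, adjusted p = 0.0667). Against parental cells KRT5 was called with median-of-ratios scaling (-2.42) and quantile normalisation (-2.37), which gave 2 members there.

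Leaving out 1 library gave 205 to 337 genes between the untreated sorted lines, 67 to 252 against parental cells for EGFR-low and 2 to 8 for EGFR-high cells, with 1 to 2 members called for EGFR-low against parental cells. The log2 fold change of KRT5 then ran from -2.98 to -2.04 against EGFR-high and from -2.86 to -1.81 against parental cells, and that of KRT80 in vorinostat from -0.0152 to 0.718.

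Values near 0 changed sign. The log2 ratio of the summed members in untreated EGFR-low to parental cells was 0.09, and it was 0.00 on the negative side (-0.00414) with median-of-ratios scaling and ran from -0.055 to 0.328 with 1 library left out. The difference in the ratio of type II to type I keratins was -0.0258 between the untreated sorted lines and 0.0409 for vorinostat in EGFR-high cells with only the 10 members in the sums, against 0.0559 and -0.0236 with all keratins. With 1 library left out the latter ran from -0.0472 to 0.0021, and the difference of EGFR-low from parental cells from -0.17 to 0.00844. The difference of the vorinostat effect was 0.0462 for KRT5 and 0.0825 for KRT19 without the 4 libraries that stood apart. The cause of these changes was not tested. With 3 libraries a group, exact permutation tests cannot go below 0.1, and the unknown depth limits what can be said of KRT6A, KRT14 and KRT17 in the second experiment.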
